A study of Mus musculus with 4 samples.

Results

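Immediate-early-high microglia without heat shock were barcodes of sorted brain myeloid cells that carried many transcripts of the early transcription factors Egr1 and Fosb but few of the heat-shock genes. A barcode, the tag of 1 droplet, was kept when it held at least 2000 UMIs (unique molecular identifiers, each standing for 1 captured transcript), at least 500 genes and at most 10% of UMIs from mitochondrially encoded genes. Members had at least 2 UMIs of Egr1, at least 1 UMI of Fosb, and a sum of Hspa1a, Hspa1b and Dnajb1 below 10 per 10000 UMIs. These minimums took in 7524 of 12883 kept barcodes, or 58.4%. The share depends on depth. With each barcode thinned to 2000 UMIs, 29.5% and 28.8% of cKO replicates 1 and 2 and 35.4% and 25.7% of Control replicates 1 and 2 met the same rule. Of the rest, 1566 barcodes met the Egr1 and Fosb minimums but exceeded the heat-shock limit, and 707 barcodes (5.49%) had no UMI of either gene. Those 707 barcodes were the comparison set.

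The cells came from 4 libraries of CD11b+/CD45+ cells, sorted after a Percoll gradient from the left hemisphere of mice labelled as female and 4 months old. Both genotypes carried the amyloid transgenes APP/PS1. The cKO group had 2 libraries, from mice with the microRNA miR-155 deleted in microglia per the labels, and the Control group had 2 libraries from APP/PS1 mice. The Cre driver and the extent of the deleted segment are not given in the sources used here. Of the miR-155 host transcript Mir155hg, members held 0 and 0 UMIs in the 2 cKO libraries, against 4 and 5 UMIs in the 2 Control libraries, too few to check the deletion in these cells. The labels name the libraries as biological replicates.

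Immediate-early genes are transcribed within minutes of a stimulus without new protein synthesis. In the textbook sequence, kinase signals through ERK, p38, calcium and cAMP act on serum response factor and CREB at their promoters. The products include the AP-1 subunits (Fos and Jun families), the zinc-finger factors of the EGR and KLF families, and inhibitors that end the signal, such as phosphatases of the kinases and proteins that speed mRNA decay. In microglia these genes are known to respond to stimuli in the brain and also to tissue dissociation. When transcription took place, in the tissue or during isolation, cannot be told apart here.

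Facts about the libraries bear on every result below. Control replicate 1, labelled female, held almost no Xist, the RNA of the inactive X chromosome, with 0.142 CPM (UMIs of a gene per 1000000 UMIs) in members, while cKO replicates 1 and 2 and Control replicate 2 held 1711 to 1879 CPM. The library labelled cKO replicate 2 carried another run code in its deposited name than the other 3 and had the most barcodes with heat shock, 26.5% of its kept barcodes against 4.06% to 12.6% in the others. Members had median depths of 7079, 7737, 7091 and 7368 UMIs in cKO replicates 1 and 2 and Control replicates 1 and 2, the library order used throughout. Between 0 and 4 barcode sequences of at least 2000 UMIs were shared by any pair of libraries.

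The label of microglia was checked against markers. All members carried at least 3 of 15 microglia markers, such as P2ry12 and Tmem119, whose summed level was 46578, 45561, 49144 and 46073 CPM. Of the comparison set, 99.6%, 100% and 98.3% did so in cKO replicates 1 and 2 and Control replicate 1. Its sums there were 39936, 43858 and 37600 CPM, so the count of markers did not set members apart. In members, markers of border-associated macrophages summed to 6.30 to 8.86 CPM, of monocytes to 7.41 to 17.1 CPM and of lymphocytes to 0.0709 to 0.210 CPM, with Cd3e and Nkg7 at 0 UMIs in every library. The neutrophil list reached 216 to 247 CPM in members, with Ly6g and Retnlg at 0 UMIs in every library. S100a8 and S100a9 were found in members of cKO replicates 1 and 2 and Control replicate 1, and Mmp8 in those of Control replicate 1. In the members paired below, Csf3r alone made up the neutrophil sum in cKO replicate 2 and Control replicate 1, at 231 and 228 CPM. Those of cKO replicate 1 also held S100a9. Choroid plexus markers, led by Ttr, summed to 331 and 205 CPM in cKO replicate 2 and Control replicate 1 and to under 1 CPM in the other 2. In the barcodes without Egr1 or Fosb, monocyte markers summed to 23.3 to 288 CPM and neutrophil markers to 150 to 5019 CPM. The lowest neutrophil sum, in cKO replicate 2, was Csf3r alone, and the highest, in Control replicate 1, held all 6 genes of the list. Choroid plexus markers there summed to 1363, 2.11, 4284 and 510.3 CPM. Oligodendrocyte markers summed to 88.4 to 98.7 CPM in members and 67.7 to 98.9 CPM in the comparison set, with at least 2 of them in 16.6% to 19.2% of members and 4.48% to 10.5% of that set. In all, 17.8% to 20.6% of members held at least 2 markers of another class, against 8.96% to 16.5% of the comparison set, and the part of these transcripts in the results was not tested.

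The share of members did not separate the genotypes. Members made up 57.0% (95% Wilson interval 55.4 to 58.6) and 51.3% (49.4 to 53.2) of kept barcodes in cKO replicates 1 and 2, against 65.9% (64.4 to 67.3) and 56.1% (54.2 to 58.0) in Control replicates 1 and 2. These intervals cover counting error only. Over 2 libraries each, cKO averaged 54.1% ± 4.06 (SD) and Control 61.0% ± 6.90, and the groups overlapped. The exact two-sided permutation p was 0.667, and 2 against 2 libraries cannot give a p below 1 in 3. The order turned with the heat-shock limit. Without any limit, 73.7% ± 5.75 of cKO and 66.8% ± 9.35 of Control barcodes met the Egr1 and Fosb minimums (exact p = 0.667).

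**Figure D1:**
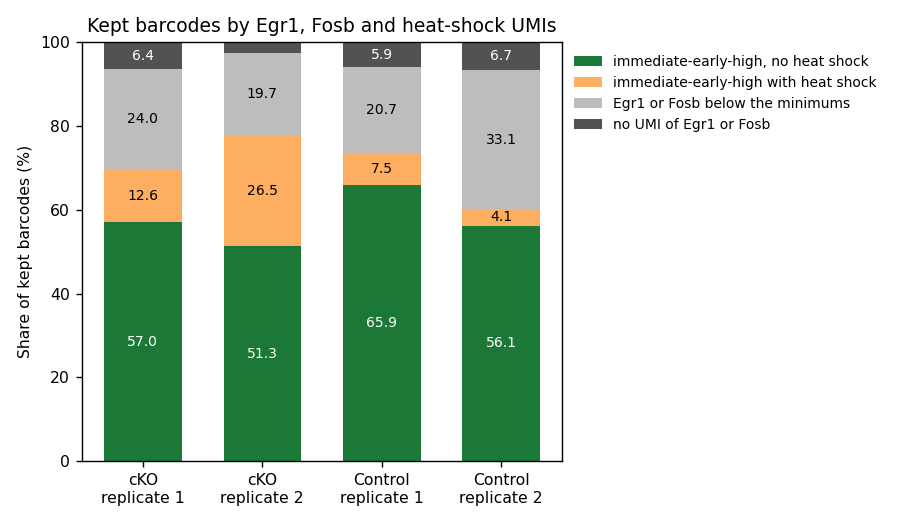
Share of kept barcodes (%) in each library, stacked from the bottom as immediate-early-high without heat shock, immediate-early-high with heat shock, Egr1 or Fosb below the minimums, and no UMI of either gene. The bottom segment runs from 51.3% in cKO replicate 2 to 65.9% in Control replicate 1, and the heat-shock segment is largest, at 26.5%, in cKO replicate 2.

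Egr1 and Fosb chose the members, so their levels are a description. Egr1, on chromosome 18 (chr18:34859823-34864984, plus strand, GRCm38), had a median of 10, 13, 10 and 10 UMIs per member. Fosb (chr7:19302696-19310051, minus strand) had a median of 8, 10, 9 and 6 UMIs per member. Most members therefore stood well above the minimums. Over all kept barcodes the medians were 7, 12, 7 and 8 UMIs of Egr1 and 5, 8, 6 and 2 UMIs of Fosb. Many kept barcodes were thus above the minimums too. At the lower edge, barcodes with exactly 2 Egr1 UMIs that were members had 820, 1492, 1082 and 722 CPM of the AP-1 gene Fos, while otherwise eligible barcodes with 1 Egr1 UMI had 851, 950, 720 and 509 CPM. In cKO replicate 1 the level did not step at the edge, and in the other 3 libraries it was higher inside. Members with 1 Fosb UMI had 1075, 1161, 878 and 722 CPM of Fos, while barcodes with none had 697, 753, 666 and 549 CPM. Just under the heat-shock limit, at 8 to under 10 per 10000 UMIs, members had 1543, 2227, 1939 and 1343 CPM of Fos, while barcodes at 10 to under 12 had 1711, 2199, 1844 and 1362 CPM.

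Free RNA in the droplets carried these genes as well. In droplets with up to 100 UMIs, taken here as a readout of free RNA, there were 857, 2242, 973 and 795 CPM of Egr1. A droplet of free RNA alone, at the depth of the kept barcodes, would have met the Egr1 and Fosb minimums in 80.6%, 98.5%, 89.3% and 68.9% of cases. The Fos level in barcodes without Egr1 or Fosb bounded the free RNA at 17.6%, 11.5%, 15.7% and 17.3% of a barcode's UMIs. At that bound free RNA would have met both minimums in 15.7%, 34.0%, 19.7% and 10.7% of kept barcodes, whereas 69.6%, 77.8%, 73.4% and 60.2% did with or without heat shock. The bound was taken from barcodes chosen for lacking these transcripts, and its part in single members was not tested.

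Members were set against the barcodes without Egr1 or Fosb by pairing each such barcode with 1 member of similar depth in the same library, which gave 228, 67, 236 and 176 pairs. UMIs were summed per library and set, and edgeR's quasi-likelihood test with the library as a block was run over 9170 genes. Adjusted p-values are from Benjamini-Hochberg over those genes, and a gene is called at 0.05. The paired members had median depths of 7960, 8172, 8014 and 10416 UMIs, against 6372, 6547, 6413 and 8344 UMIs in the comparison set. Both sets came from the same 4 libraries and were chosen by genes of the same profiles, so a call says how far another gene moved along with Egr1 and Fosb. In all, 1449 genes (15.8% of those tested) were higher and 1679 genes (18.3%) were lower in members, with a median log2 fold change of 0.04 over all genes.

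The sets also differed in microglial state. MGnD, the neurodegenerative or disease-associated phenotype, was scored as at least 3 of 12 genes detected after thinning each barcode to 2000 UMIs. By that score 28.9%, 22.4%, 28.0% and 39.2% of the paired members were MGnD-high, against 75.4%, 61.2%, 78.0% and 81.3% of the barcodes without Egr1 or Fosb. The part of state in the gene differences was not tested as a cause, and values within each state are given below. Among all members 30.5%, 20.6%, 31.2% and 31.9% were MGnD-high, so the members spanned both states. Free RNA at the bound, which was taken from barcodes chosen for lacking Egr1 and Fosb, would give 7.22%, 0.593%, 8.29% and 12.6%. Its part in the shares of members was not tested. MHC class II-high barcodes made up 5.70%, 8.96%, 2.12% and 1.70% of paired members, against 11.0%, 11.9%, 8.90% and 8.52%, and cycling barcodes 0.877%, 0%, 0.847% and 1.14%, against 5.26%, 2.99%, 5.08% and 1.70%.

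Fos, whose protein pairs with Jun proteins to form AP-1, rose most among the named genes outside the rule. Its level was 1336, 1859, 1286 and 997 CPM in members, against 148, 187, 147 and 128 CPM in matched barcodes. The groups did not overlap, and cKO replicate 2 was the highest library in both. The log2 fold change was 3.14 (SE 0.09, adjusted p = 3.19e-24), higher in 4 of 4 libraries. Jun, the most abundant AP-1 subunit here, had 3709, 3563, 3582 and 3029 CPM, against 1064, 1176, 816 and 910 CPM, and rose by 1.82 on the log2 scale (SE 0.08). Junb, a subunit with weaker transactivation, rose by 1.78, with 1635 ± 267 CPM in members and 485 ± 124 CPM in matched barcodes (SD, n = 4 each).

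The AP-1 list as a whole did not move in 1 direction. Of 11 subunits tested, 5 rose (Fos, Jun, Junb, Jund and Fosl2) and 1 fell, with a median log2 fold change of 0.21. The subunit that fell was Maff, a small MAF protein without a transactivation domain, at 8.82, 10.5, 7.61 and 14.2 CPM in members against 24.1, 24.5, 14.9 and 25.3 CPM (log2 fold change -1.09, SE 0.24). Within MGnD-high barcodes it had -0.31 and was not called. Atf3, Batf, Batf3, Jdp2 and Mafk did not pass the test. After thinning to 2000 UMIs, members carried a median of 9 of 38 early transcription factor genes in every library, against 5, 5, 4 and 4 in matched barcodes. Fos itself was then detected in 78.9%, 92.5%, 81.8% and 73.3% of paired members, against 12.3%, 14.9%, 11.4% and 14.8% of matched barcodes.

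In the EGR family, Egr2 and Egr3 both rose, and the corepressors Nab1 and Nab2 did not pass the test. Egr2, a zinc-finger factor close to Egr1, had 33.4, 52.4, 32.2 and 39.4 CPM in members, against 11.0, 29.0, 10.8 and 27.6 CPM. The ranges were close to touching, and its log2 fold change was 1.08 (SE 0.19, adjusted p = 2.79e-05). Egr3 was a low gene, with 60, 18, 49 and 61 UMIs in members, against 13, 0, 10 and 8 UMIs in matched barcodes (log2 fold change 1.99, SE 0.28).

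Of 13 tested factors on the list of NR4A receptors and other immediate-early factors, 8 rose and 1 fell, with a median log2 fold change of 1.00. Klf2, a Krüppel-like factor known to restrain inflammatory activation of myeloid cells, had 418, 492, 487 and 197 CPM in members, against 58.6, 107, 47.4 and 33.0 CPM. Its log2 fold change was 2.82 (SE 0.12), and Control replicate 2 was the lowest library in both sets. Klf4, of the same family, averaged 248 ± 63.2 CPM in members and 39.3 ± 8.04 CPM in matched barcodes (SD, n = 4 each; log2 fold change 2.66). Btg2, an antiproliferative partner of the CCR4-NOT deadenylase, had 2899, 3189, 2577 and 2589 CPM, against 931, 1093, 598 and 702 CPM, and rose by 1.80. Ier2, a small nuclear protein of the early response, averaged 268 ± 28.1 CPM against 80.8 ± 20.8 CPM and rose by 1.72. Bhlhe40, a repressor with roles in the clock and in macrophage activation, ran the other way, at 5.98 to 15.2 CPM in members and 28.9 to 41.3 CPM in matched barcodes, with a log2 fold change of -1.66. Nr4a1, the nuclear receptor Nur77, was hardly detected, in 0.569% to 1.68% of all members after thinning.

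**Figure D2:**
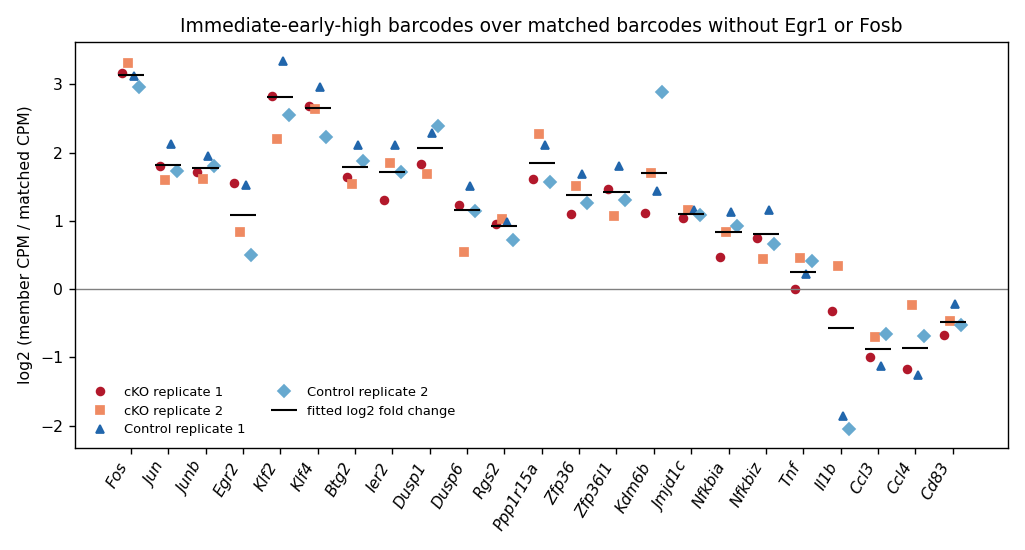
Log2 ratio of summed CPM in members over matched barcodes without Egr1 or Fosb, 1 point per library (circles and squares cKO, triangles and diamonds Control), with the fitted log2 fold change as a bar. From Fos to Nfkbiz the points of every library lie above 0, while Tnf and Il1b spread around 0 and Ccl3, Ccl4 and Cd83 lie below it.

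Promoter sequences are shown for Btg2, Dusp1 and Egr2 because they hold the elements through which CREB and serum response factor are known to act. They come from RefSeq on GRCm38.p6, with the element in capitals and positions counted from the start site. Egr2 had 5 promoters in that source, and its position is counted from 1 of them.
Btg2 (chr1:134079289-134079346, minus strand), cAMP response element starting at -166: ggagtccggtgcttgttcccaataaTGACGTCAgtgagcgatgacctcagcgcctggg
Dusp1 (chr17:26508583-26508640, minus strand), cAMP response element starting at -143: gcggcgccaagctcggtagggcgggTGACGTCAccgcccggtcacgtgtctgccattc
Egr2 (chr10:67537469-67537528, plus strand), CArG box starting at -72: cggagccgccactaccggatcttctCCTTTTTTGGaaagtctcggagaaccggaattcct
Windows ran from 250 bases before to 50 bases after each start site, and both strands were searched. Of 23 early-list genes called higher, 19 had a promoter in the table, and the full cAMP response element TGACGTCA was found in 3 of them, Btg2, Dusp1 and Errfi1 (15.8%). It was found in 3.88% of the 7314 tested genes with a promoter. The CArG box, searched by its name with A or T at each of its middle positions, was found in 1 of the 19 genes (5.26%) and in 1.59% of tested genes. The AP-1 site TGANTCA was found in 1 of 19 genes, Csrnp1, and in 5.67% of tested genes, and the EGR site GCGTGGGCG in none of the 19 genes and in 1.54% of tested genes. The element TGACGTCA does not contain the AP-1 letters. Among 13 early-list genes with a promoter that were not called higher, the cAMP response element was found in 1, Maff. The EGR site was found in 2 of them, Maff and Nab1. Fos, Jun, Junb, Klf2 and Klf4 held none of these letters in these windows.

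Inhibitors that end kinase signals rose together with the factors. Of 12 tested genes for MAPK phosphatases and ERK feedback, 8 rose and 1 fell, with a median log2 fold change of 0.60. Dusp1, the nuclear phosphatase of p38 and JNK whose promoter is printed above, had 391, 553, 401 and 384 CPM in members, against 109, 171, 81.9 and 73.0 CPM (log2 fold change 2.07, SE 0.10). Dusp6, the ERK phosphatase, averaged 378 ± 14.9 CPM in members and 180 ± 50.9 CPM in matched barcodes and rose by 1.16. Rgs2, a brake on G-protein signals, averaged 1086 ± 112 CPM in members and 571 ± 28.1 CPM in matched barcodes and rose by 0.92. Phlda1 fell, at 5.50 to 15.2 CPM in members and 9.48 to 33.0 CPM in matched barcodes, with overlapping ranges, and had a log2 fold change of -0.014, not called, within MGnD-high barcodes.

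Of 10 tested factors of mRNA decay and stability, 4 rose, 6 did not pass the test and none fell. Zfp36, tristetraprolin, which binds AU-rich elements, had 788, 1195, 856 and 766 CPM, against 366, 421, 264 and 319 CPM (log2 fold change 1.39, SE 0.09). Zfp36l1, a close relative, rose by 1.42. Ppp1r15a, which returns translation to normal after stress by dephosphorylating eIF2alpha, averaged 197 ± 44.7 CPM in members and 52.2 ± 10.2 CPM in matched barcodes and rose by 1.84.

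Kdm6b, the H3K27 demethylase that is the third marker of these cells and no part of the rule, was low in level but higher in members. It lies at chr11:69398508-69413675 (minus strand) and had 38.1, 80.8, 39.3 and 48.5 CPM in members, against 17.2, 24.5, 14.2 and 6.14 CPM. The groups did not overlap, and the log2 fold change was 1.71 (SE 0.20, adjusted p = 1.73e-08). After thinning it was detected in 8.33%, 11.9%, 8.05% and 10.8% of paired members, against 3.07%, 5.97%, 2.97% and 1.14% of matched barcodes. Of 12 tested chromatin regulators of the early response, 8 rose and none fell, with a median of 0.37. Jmjd1c, a relative of the H3K9 demethylases, had 495 ± 49.9 CPM against 229 ± 22.5 CPM and rose by 1.11, and Brd2, a reader of acetylated histones, rose by 0.78. Brd2 had 0.46 outside the MGnD-high state and lost its call in 1 of 16 alternatives. Of 10 tested genes of the CREB and cAMP response, 5 rose and none fell. They included Pde4b, a phosphodiesterase that breaks down cAMP, at 12.6 to 32.9 CPM in members and 4.74 to 17.8 CPM in matched barcodes (log2 fold change 1.31).

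Some NF-kB feedback genes rose, and few cytokines were called. Of 15 tested NF-kB subunits and inhibitors, 5 rose, none fell and all 15 had a positive log2 fold change, with a median of 0.40. Nfkbia, the inhibitor IkBalpha, had 234, 410, 246 and 239 CPM in members, against 168, 229, 112 and 126 CPM (log2 fold change 0.83, SE 0.10). Nfkbiz, an atypical nuclear IkB protein, rose by 0.80, and the subunit Rel rose by 0.56. Rel lost its call in 2 of 16 alternatives and Nfkbia in 1, while Nfkbiz kept it in all 16. Outside the MGnD-high state Rel had 0.17, Nfkbia 0.55 and Nfkbiz 0.88. Of 8 tested cytokines, Il1a rose by 0.56 and Csf1 fell by 0.91 on the log2 scale. Il1a lost its call in 5 of 16 alternatives, and Csf1 had -0.074, not called, within MGnD-high barcodes. Tnf had 41.3, 67.3, 19.0 and 53.1 CPM in members, against 41.4, 49.0, 16.3 and 39.9 CPM, and did not pass the test (log2 fold change 0.25, adjusted p = 0.216 by edgeR). Its sign turned in 4 alternatives, and it was called in opposite directions by state, at 0.47 within MGnD-high barcodes and -1.12 in the others. Il1b did not pass either, with 12.1, 50.9, 1.69 and 2.02 CPM against 15.2, 40.1, 7.45 and 9.99 CPM, though it was called lower in 3 alternatives, with log2 fold changes down to -1.22.

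Chemokines were lower in members. Of 11 tested, 7 fell and none rose, with a median log2 fold change of -0.88. Ccl3, the ligand MIP-1alpha, had 553, 547, 510 and 822 CPM in members, against 1097, 891, 1113 and 1294 CPM (log2 fold change -0.88, SE 0.09). Ccl4, MIP-1beta, had 501, 697, 456 and 666 CPM, against 1129, 822, 1088 and 1072 CPM (log2 fold change -0.87). Ccl6, which is also high in MGnD, averaged 389 ± 102 CPM against 1063 ± 228 CPM, a log2 fold change of -1.47. Cd83, a costimulatory surface protein, was lower by less, with a log2 fold change of -0.49, and this call was lost within each MGnD state. On the list of activation surface genes, 2 of 9 rose and 5 fell.

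Genes of homeostatic microglia were higher in members. Of 20 tested, 13 rose and none fell, with a median log2 fold change of 0.37. Tmem119, a microglial surface protein, had 1000, 1114, 923 and 841 CPM in members, against 496, 672, 363 and 449 CPM (log2 fold change 1.01, SE 0.09). P2ry12, the ADP receptor that directs process extension, had 2287, 2130, 2413 and 1969 CPM, against 1116, 1385, 1084 and 1089 CPM, and rose by 0.92. The fractalkine receptor Cx3cr1 rose by 0.72 and was higher in both Control libraries, at 3597 and 4243 CPM in members, than in the cKO libraries, at 2081 and 2242 CPM. Outside the MGnD-high state Tmem119 and Cx3cr1 had 0.41 and 0.34, and each lost its call in 1 of 16 alternatives. P2ry12 had 0.59 there and kept its call in all 16. Of 5 tested genes for purinergic signals, 4 rose, among them the ATP-degrading enzyme Entpd1 by 0.60. The cholesterol exporter Abca1 rose by 0.94, to 266 ± 21.8 CPM in members, against 139 ± 18.6 CPM in matched barcodes.

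MGnD genes were lower throughout. All 25 tested fell, with a median log2 fold change of -1.61 and a range of -4.23 to -0.84. Apoe, the main lipid carrier of the brain, had 3331, 2492, 2354 and 4167 CPM in members, against 12546, 11349, 10322 and 15712 CPM (log2 fold change -2.04, SE 0.08, adjusted p = 7.04e-21). Clec7a, the lectin Dectin-1, had 187, 150, 175 and 264 CPM, against 617, 597, 814 and 797 CPM. Lpl, lipoprotein lipase, averaged 166 ± 51.8 CPM against 550 ± 92.3 CPM, a log2 fold change of -1.73. Spp1 (osteopontin) and the fatty-acid carrier Fabp5 had log2 fold changes of -2.86 and -2.72. The 12 genes of the state score are among the genes that chose that score, so the state shares and this list are no separate evidence.

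Most MHC class II and lysosome genes were also lower, while interferon genes were mixed. All 6 MHC class II genes fell, with a median log2 fold change of -1.94, and the list's median log2 ratio was -2.47, -0.37, -0.82 and -2.31 in the 4 libraries. Within MGnD-high barcodes 3 of the 6 fell, with a median of -0.31. Cd74, the invariant chain, averaged 145 ± 82.2 CPM in members and 480 ± 253 CPM in matched barcodes, and H2-Eb1 had a log2 fold change of -2.35, which was -0.28 and not called within MGnD-high barcodes. Of 20 tested type I interferon response genes 9 fell and none rose, with Ifitm3, an antiviral membrane protein, at -1.51. Of 14 tested interferon-gamma response genes 3 rose and 3 fell, where 15.8% of all genes tested rose and 18.3% fell. Gbp7, a guanylate-binding GTPase, rose by 1.36. Of 21 tested lysosome and phagocytosis genes 14 fell and 2 rose. Npc2, which moves cholesterol out of the lysosome, averaged 800 ± 152 CPM against 1934 ± 202 CPM, and the lysosomal enzyme gene Hexa had a log2 fold change of -0.87.

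Genes of translation and energy metabolism took a smaller share of the UMIs in members. All 39 cytosolic ribosomal protein genes fell, with log2 fold changes between -1.34 and -0.78. Rpl41, the largest of these falls, had 1180, 1282, 1219 and 1966 CPM in members, against 2936, 3271, 3779 and 4089 CPM. Of 31 nuclear genes of oxidative phosphorylation 30 fell, with a median of -0.95, and Uqcrh, a subunit of complex III, had 297 ± 39.6 CPM against 638 ± 74.8 CPM. All 13 mitochondrially encoded genes fell, with a median of -0.55. Of 14 tested glycolysis genes 11 fell and 1 rose, with Gapdh at 634 ± 129 CPM in members and 1446 ± 310 CPM in matched barcodes. Of 12 tested cell cycle genes 10 fell, Birc5 among them with a log2 fold change of -3.21. CPM are shares of a total, so these values do not tell less RNA of 1 kind from more of another.

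**Figure D3:**
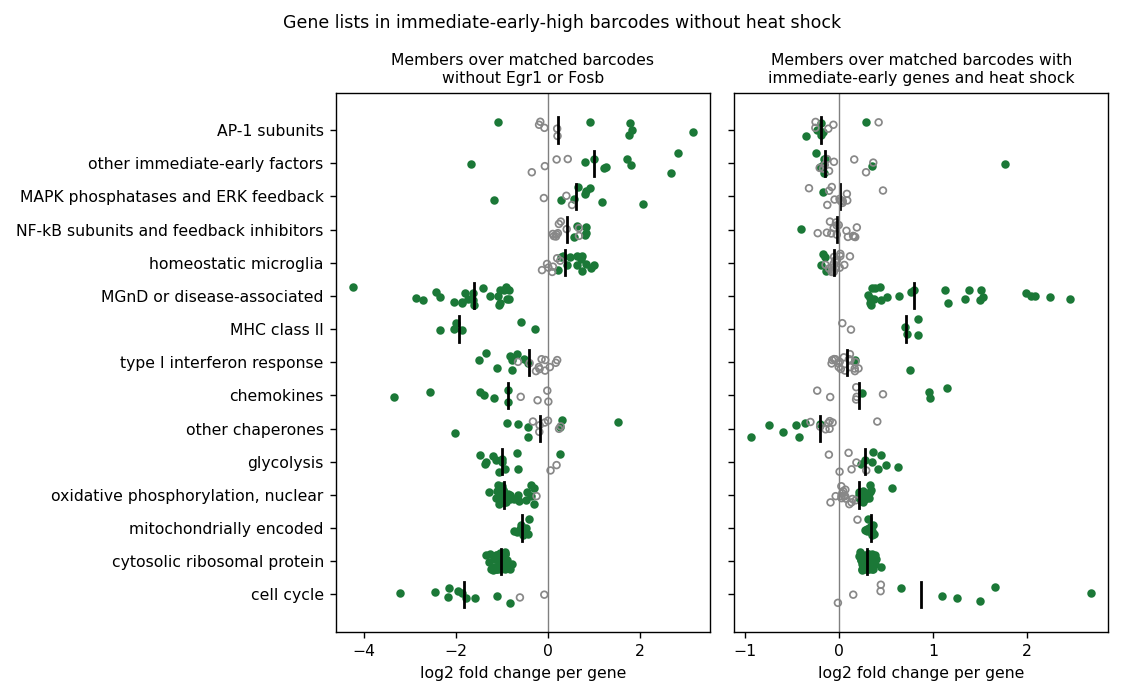
Log2 fold change of each tested gene by list, members over matched barcodes without Egr1 or Fosb (left) and members over matched barcodes with heat shock (right). Filled points passed adjusted p 0.05, open points did not, and the bar is the list's median, which for MGnD genes is -1.61 on the left and 0.80 on the right.

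Stress lists were mixed, and several counts below stand near the shares over all genes tested, 15.8% higher and 18.3% lower. Of 15 tested chaperones outside the rule 3 rose and 5 fell. Dnajb4, a co-chaperone of the Hsp40 family, rose by 1.52, from values of 121, 212, 119 and 88.0 CPM in members, against 37.9, 71.3, 31.1 and 47.6 CPM. The mitochondrial chaperonin Hspe1 had 213 ± 14.05 CPM in members and 394 ± 34.2 CPM in matched barcodes, a log2 fold change of -0.88. Of 9 tested oxidative stress genes 6 fell and 1 rose, with heme oxygenase Hmox1 at -0.98. Of 12 tested GADD45 and p53 genes 4 fell and 1 rose, with the cell cycle inhibitor Cdkn1a at -0.78. Of 10 tested unfolded protein genes 4 rose, including Ppp1r15a, and 1 fell. Of 13 tested histone genes 4 rose and 5 fell, and of 5 tested circadian genes 2 rose, Tef and Clock. Of 15 tested cholesterol and lipid genes 11 fell and 2 rose, the exporters Abca1 and Abcg1.

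Some of the largest changes belonged to no list of the early response. Bank1, a scaffold of B cell receptor signals, had 53.4, 40.4, 43.6 and 44.5 CPM in members, against 6.89, 8.91, 8.12 and 3.84 CPM, and rose by 2.79 (SE 0.22). Il7r, the interleukin-7 receptor, averaged 37.2 ± 12.6 CPM in members and 9.40 ± 4.54 CPM in matched barcodes and rose by 2.07. Plac8 and S100a4, both on the monocyte marker list, had log2 fold changes of -4.55 and -4.39, with 17.8 to 105 and 6.68 to 73.7 CPM in matched barcodes. The galectin Lgals3 had a log2 fold change of -4.23. Ttr, a marker of choroid plexus, had 0, 1.5, 1578 and 0 CPM in members and 1448, 2.23, 4906 and 598 CPM in matched barcodes. The linker histone Hist1h1b had 6.10 ± 6.12 CPM in members and 70.6 ± 83.8 CPM in matched barcodes. The part of blood, choroid plexus and dividing cells in the comparison set was not tested for these genes. Without barcodes that held 2 markers of another class, 2884 genes were called in place of 3128.

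The levels moved in steps with the amount of Egr1 and Fosb. Members were ranked within each library by Egr1 and Fosb UMIs per total UMI and divided at the median. Fos was at 138, 178, 127 and 107 CPM in barcodes without either gene, 630, 760, 592 and 484 CPM in those below the minimums, 1139.5, 1615, 1055 and 797 CPM in members up to the median and 1789, 2494, 1821 and 1571 CPM above it. Apoe was lower along the same classes, at 4859, 3842, 4654 and 5569 CPM in members up to the median and 1579, 1100.4, 1087 and 1289.8 CPM above it. Kdm6b was at 46.0, 62.5, 35.1 and 52.9 CPM in members up to the median and 59.7, 93.8, 60.2 and 86.0 CPM above it. P2ry12 was higher in each of these classes than in the one before it in all 4 libraries. Ccl3 and Ccl4 were lowest in barcodes with heat shock in all 4 libraries. Members up to the median had median depths of 8607, 8167, 8964 and 10082 UMIs, against 6360, 7495, 6195 and 6507 UMIs above it, so depth moved with the classes. These are descriptions, since Egr1 and Fosb set the classes.

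**Figure D4:**
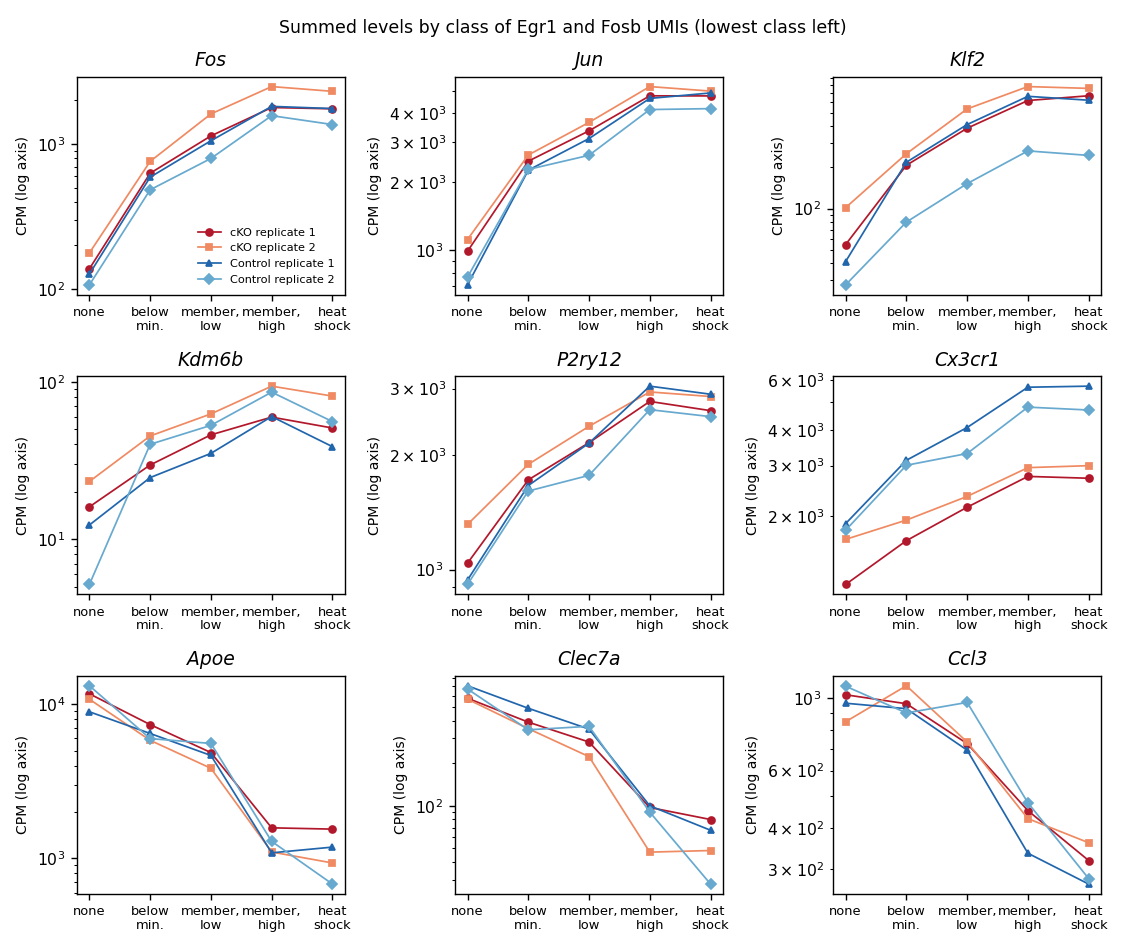
Summed CPM (log axis) of 9 genes in 5 classes of barcodes per library: no Egr1 or Fosb, below the minimums, members up to the library's median of Egr1 and Fosb per UMI, members above it, and barcodes with heat shock. Fos, Jun, Klf2, P2ry12 and Cx3cr1 climb through the member classes in every library, and Apoe and Clec7a are lowest in members above the median and in barcodes with heat shock.

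Fos, Klf2, Dusp1 and Jun were higher within each microglial state. These fits, added after the data had been seen, pair members and barcodes without Egr1 or Fosb separately among MGnD-high barcodes and among the rest. The fit of MGnD-high barcodes called 952 genes higher and 1174 lower of 8430, and that of the others 142 higher and 277 lower of 3776. Fos was higher by 3.66 on the log2 scale in MGnD-high barcodes and by 1.97 in the others. Klf2 rose by 3.24 and 2.06, Dusp1 by 2.23 and 1.70 and Jun by 1.77 and 1.42 in the same order. Kdm6b rose by 2.01 in MGnD-high barcodes but had 0.63, short of the threshold, in the others. The difference between the states was not tested.

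Other lists were read within each state in the same way. Of MGnD genes, 24 of 25 tested fell in MGnD-high barcodes, with a median of -0.78, and 8 of 15 fell in the others, with a median of -0.45. Ribosomal protein genes fell in both, 39 of 39 and 38 of 39, with medians of -0.67 and -0.67. Of homeostatic genes 13 of 20 rose and 1 fell in MGnD-high barcodes and 6 of 19 rose in the others. Ccl3 had log2 fold changes of -0.18 in MGnD-high barcodes and -0.57, short of the threshold, in the others, and Ccl4 had -0.24 and -1.03, both called.

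The most similar barcodes left out met the same Egr1 and Fosb minimums but had heat shock. Members were paired with them on depth in the same way, in 452, 706, 301 and 107 pairs. The levels of Egr1 and Fosb were not matched. Paired members had median depths of 7477, 8891, 6918 and 7152 UMIs, against 5983, 7426, 5535 and 5723 UMIs. No pairing at equal depth was run for this comparison. Over 10498 genes, 467 (4.45%) were higher in members and 134 (1.28%) lower, far fewer than against barcodes without Egr1 or Fosb. Hspa1a, Hspa1b and Dnajb1 chose the sets and are not counted.

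Several early transcription factors were slightly lower in members than in heat-shock barcodes, and others were higher. Fos had 1469, 1974, 1504 and 1331 CPM in members, against 1709, 2209, 1723 and 1415 CPM in barcodes with heat shock, a log2 fold change of -0.17 (SE 0.04, adjusted p = 0.00211 by edgeR), which lost its call in 4 of 11 alternatives, among them those without cKO replicate 1 or Control replicate 1 (adjusted p = 0.0816 and 0.0908). Jun and Junb had log2 fold changes of -0.23 and -0.19, and Klf2 of -0.24. Of 11 AP-1 subunits 5 fell and 1 rose, the stress factor Atf3, with 157 ± 38.6 CPM in members and 119 ± 24.1 CPM in barcodes with heat shock. Egr3 rose by 0.40, though not in Control replicate 2 and with its call lost in 5 of 11 alternatives, and Ier3, an inhibitor of cell death, by 0.35. Kdm6b (59.6 ± 11.9 CPM against 55.7 ± 16.7 CPM), Dusp1 and Nfkbia did not pass the test. Zfp36 was slightly lower in members, with a log2 fold change of -0.14, and lost its call in 7 of 11 alternatives.

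All 25 tested MGnD genes were higher in members than in barcodes with heat shock, with a median log2 fold change of 0.80. Cst7, the cysteine protease inhibitor cystatin F, had 374, 265, 518 and 324 CPM in members, against 79.7, 67.1, 92.2 and 39.1 CPM (log2 fold change 2.24, SE 0.07). Apoe had 3402, 2555, 2726 and 3818 CPM, against 1510, 892, 1160 and 707 CPM, and rose by 1.51. Igf1, insulin-like growth factor, rose by 2.45, Clec7a by 1.5 and Lpl by 1.53. MGnD-high members made up 31.2%, 22.5%, 27.2% and 31.8% of these pairs and MGnD-high barcodes with heat shock 17.0%, 10.3%, 12.96% and 11.2%. Among barcodes that were not MGnD-high, added after the data had been seen, 40 genes were called, 5 of 21 tested MGnD genes rose, and no AP-1 subunit passed the test. MGnD genes also set that state, so their count there is a description.

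Chemokines, ribosomal protein and mitochondrial genes were also higher in members than in barcodes with heat shock. Ccl3 had 623, 589, 532 and 722 CPM in members, against 311, 345, 265 and 291 CPM, and rose by 0.96. Ccl4 and Ccl6 rose by 0.97 and 1.15, and Cd83 by 0.31. All 39 ribosomal protein genes rose, with a median of 0.30, and 12 of 13 mitochondrially encoded genes rose, led by mt-Co1 with 3354 ± 331 CPM against 2569 ± 169 CPM. Gapdh rose by 0.50, Cd74 by 0.84 and the proliferation gene Mki67 by 2.68, from few UMIs. Outside the MGnD-high state Cd74, Gapdh and Rpl41 had 0.04, 0.13 and 0.09 and were not called, 0 of 39 ribosomal protein genes and 11 of 13 mitochondrially encoded genes were called, and Ccl3 rose by 0.49. Among homeostatic genes 4 of 20 fell, including Tmem119 and Cx3cr1 at -0.17 and -0.15, and P2ry12 did not pass the test (2543 ± 137 CPM against 2687 ± 124 CPM).

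Chaperones outside the rule were higher in the barcodes with heat shock. Of 15 tested 7 fell in members and none rose. Hsph1, an Hsp110 nucleotide exchange factor, had 16.8, 27.9, 18.6 and 22.1 CPM in members, against 28.6, 59.3, 30.9 and 26.1 CPM (log2 fold change -0.93). Dnaja1 and Hsp90aa1 had log2 fold changes of -0.59 and -0.42. Dnajb4, which was higher in members than in barcodes without Egr1 or Fosb, had a log2 fold change of -0.45 against those with heat shock. Gadd45g, a growth arrest gene, averaged 33.5 ± 8.91 CPM in members and 56.4 ± 14.3 CPM in barcodes with heat shock.

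Genotype was tested over the sums of all members, 2 cKO against 2 Control libraries. Of 12906 genes none was called, 0% in either direction, with 854 genes at an unadjusted p under 0.05 in edgeR and 14 calls in DESeq2. With 2 libraries a group the counts depended on which library was left out, from 0 calls without cKO replicate 2 and 30 without cKO replicate 1 to 133 without Control replicate 1 and 149 without Control replicate 2. No early gene was called in the edgeR fit, though some did not overlap between the groups. Over all 12906 genes, 37.3% did not overlap between the groups. Egr1 and Fosb, which chose the members, had 1460 and 1698 CPM and 1011 and 1257 CPM in cKO members, against 1405 and 1471 CPM and 1125 and 804 CPM in Control members. Fos had 1439 and 1977 CPM in cKO members, against 1416 and 1210 CPM in Control members (log2 fold change 0.38, SE 0.15, adjusted p = 0.699 by edgeR), and was called in 1 of 13 alternatives, that without a filter on low counts. Jun had 3993 and 4275 CPM against 3824 and 3485 CPM, and Kdm6b 52.1 and 75.3 CPM against 46.9 and 71.5 CPM, with overlapping groups for Kdm6b, which was called in 1 alternative and turned its sign in 3. Junb, Dusp1 and Nr4a1 had adjusted p-values of 0.841, 0.752 and 0.694 in the same edgeR fit, and Nr4a1 was called in 2 of 13 alternatives.

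The smallest adjusted p-value was 0.0508, shared by 4 genes just short of the threshold. Cx3cr1 had 2410 and 2548 CPM in cKO members, against 4817 and 4196 CPM in Control members (log2 fold change -0.86, SE 0.10), and the groups did not overlap. Of 13 alternatives 9 called Cx3cr1, 9 Esr1, 8 Cxcl10, 7 Cdkn1a and 6 H2-Aa. Cdkn1a had 64.3 and 52.0 CPM against 33.8 and 28.0 CPM (0.91), H2-Aa 46.2 and 47.5 CPM against 30.6 and 31.7 CPM (0.59), and the estrogen receptor Esr1 13.9 and 12.8 CPM against 4.61 and 5.70 CPM (1.39). H2-Aa had the opposite sign, -0.43, in members outside the MGnD-high state. The chemokine Cxcl10 had 35.5 and 47.2 CPM in cKO members, against 8.39 and 17.3 CPM in Control members (1.75, adjusted p = 0.0721 by edgeR), and the histone gene Hist1h2ac had a log2 fold change of -0.83 at the same adjusted p.

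As a list, MGnD genes were at a lower level in cKO members, without a call. Of 26 tested genes 25 had a negative log2 fold change, with a median of -0.32, where 6594 of all 12906 genes had a positive one. Lpl had 126 and 109 CPM in cKO members, against 181 and 199 CPM in Control members (-0.69, adjusted p = 0.0620 by edgeR). Cst7 had 397 and 281 CPM against 593 and 572 CPM, and Clec7a 190 and 132 CPM against 231 and 250 CPM. MGnD-high members made up 30.5% and 20.6% in cKO, against 31.2% and 31.9% in Control, and the part of that share in the list was not tested. Outside the MGnD-high state Apoe had a log2 fold change of 0.40, opposite to its -0.26 over all members, and Clec7a of -0.11. All 39 ribosomal protein genes and all 13 mitochondrially encoded genes also had negative values without a call. The residual heat-shock transcript Hspa1a, limited by the rule, had 133 and 122 CPM in cKO members, against 86.3 and 58.1 CPM in Control members.

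**Figure D5:**
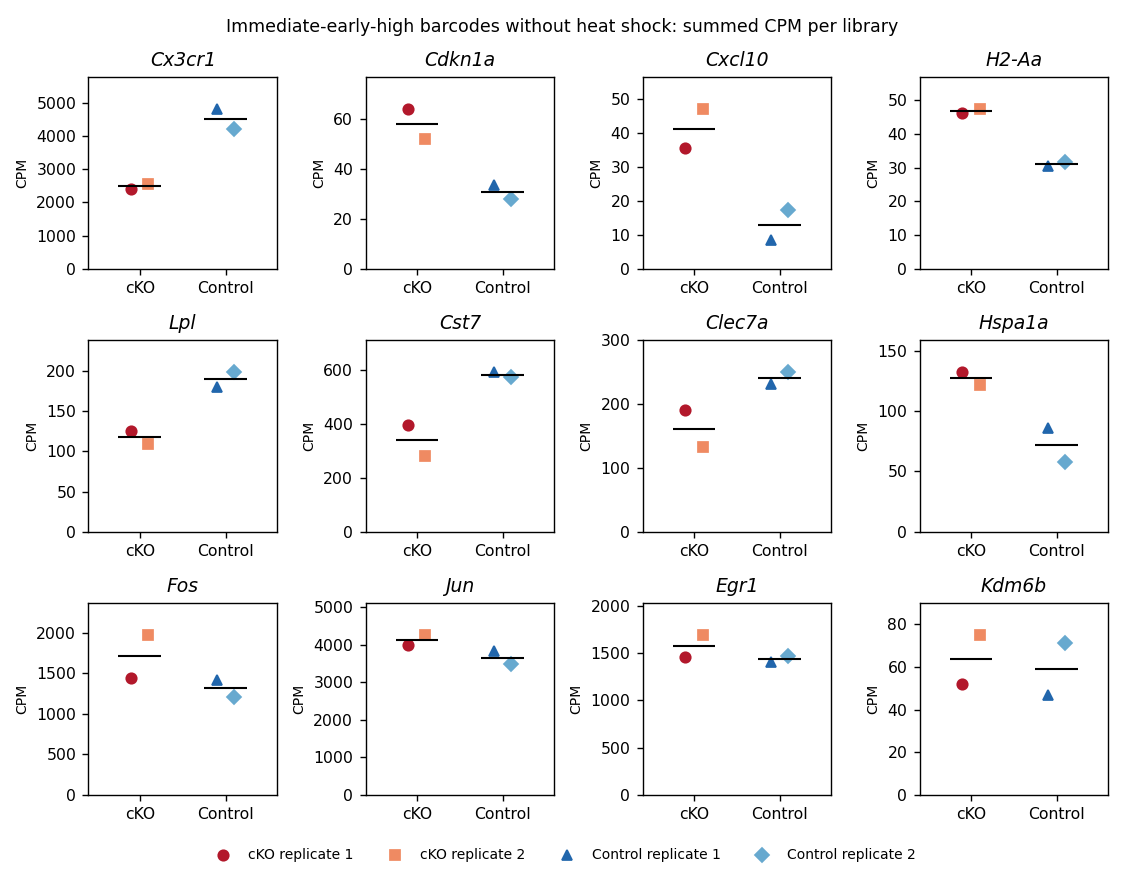
Summed CPM of 12 genes in members of each library, cKO left and Control right, with bars at the group means of 2 libraries. Cx3cr1, Cst7 and Lpl are lower and Cdkn1a and Cxcl10 higher in both cKO libraries than in both Control libraries, with no adjusted p below 0.05, and Kdm6b overlaps. Of all 12906 genes tested, 37.3% had groups that did not overlap.

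Whether members differed from matched barcodes by genotype was tested as an interaction over 9877 genes. The test called 1 gene with a positive interaction (0.0101%) and 2 with a negative one (0.0202%), with 450 genes at an unadjusted p under 0.05 in edgeR and 0 calls in DESeq2. At equal depth the test called 0 genes. None of the 3 genes called in the main pairing was an immediate-early gene. They were Cxcl10, Ttr and Enpp2, and their values per library stand among the results listed for a closer look.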

How the data were processed

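The deposited files of the 4 libraries hold raw UMI counts for each gene in each droplet, which the authors obtained by Cell Ranger (4.0.0; build mm10), per the submitters' processing notes and the labels. They were unfiltered, over 32372 features, and summed to 33130800 to 47574406 UMIs per library. Deposited barcode and feature names (other: no measurement, per the file headers) only label the counts. Members and gene lists were chosen with earlier results of these data known. Cells are not replicates, so UMIs were summed per library and set. Members, from the deepest down, each took the unused barcode nearest in total UMIs. It had to lie within 20% of the member's total, so members ended deeper than their partners. At equal depth, the alternative against barcodes without Egr1 or Fosb, those barcodes took the nearest member instead. Sums were tested two-sided with edgeR 4.0.16 in R 4.3.3 (filterByExpr, TMM, quasi-likelihood, limma 3.58.1 loaded), with DESeq2 1.42.0 as an alternative, and adjusted by Benjamini-Hochberg at 0.05. CPM of these fits carry TMM factors. SE is the log2 fold change over the square root of F. The scripts were tested on simulated data. No doublets were called, and barcodes with 2 markers of another class or above the 95th percentile of UMIs were left out as alternatives. Genes named are the 12 largest called changes per direction with the same sign in every library and log2 CPM of at least 4, up to 3 per list by p, and fixed checks; Maff, Bhlhe40, Phlda1, Esr1 and Enpp2 were added after their values were seen. Replicate numbers are not said to pair animals, so the main fit of genotype used no such block. Gene positions are from GENCODE M21 on GRCm38.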

Additional observations from a re-analysis of the deposited data

Results flagged for a closer look

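In the main pairing, edgeR's test of whether the effect of membership differed between genotypes called 3 of 9877 genes. In the pairing at equal depth it called 0, and Ttr and Enpp2 had the opposite sign there. Ttr, the thyroid hormone carrier made by choroid plexus, had 0 and 1.49 CPM in members of cKO replicates 1 and 2 and 1572 and 0 CPM in those of Control replicates 1 and 2, while matched barcodes had 1442, 2.21, 4903 and 595 CPM. Its interaction was -8.31 on the log2 scale, with the opposite sign without cKO replicate 1 or Control replicate 1. Enpp2, a lysophospholipase also high in choroid plexus, had 0, 0, 128 and 0 CPM in members and 52.8, 0, 97.4 and 29.1 CPM in matched barcodes, an interaction of -8.77. Both values depend on the prior count, since several sums were 0, and on Control replicate 1 alone among members. The part of free or attached choroid plexus RNA was not tested.

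Cxcl10, an interferon-induced chemokine, had 70.2 and 20.8 CPM in members of cKO replicates 1 and 2 and 6.32 and 22.7 CPM in those of Control replicates 1 and 2, while matched barcodes had 46.7, 30.9, 35.2 and 57.4 CPM. Its interaction was 2.13 (SE 0.33, adjusted p = 4.89e-05 by edgeR). Among members the cKO and Control libraries overlapped, and the sign turned without barcodes that held 2 markers of another class. DESeq2 called none of the 3 genes.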

How the results depend on the processing

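Against matched barcodes 3128 genes were called, with 1693 in DESeq2, 1399 after thinning to 2000 UMIs and 419 outside MGnD-high, of which 1693, 1334 and 399 were among the 3128 with the same sign; fewer genes were tested in the last pair, and leaving out each library gave 2259 to 3245. Against heat shock 601 genes were called, with 305 in DESeq2, 235 after thinning, 40 outside MGnD-high and 432 to 572 without each library. Of 0 genotype calls, DESeq2 had 14, no filter on low counts 234, thinning 6, leaving out barcodes with other-class markers 2, those above the 95th percentile of UMIs 2, the replicate block 34, the crossed pairing 16, members outside MGnD-high 7, and leaving out each library 0 to 149. Deviations from the group means correlated at -0.265 between same-numbered libraries. With 2 libraries a group the other pairings mirror this value, so it cannot tell whether the numbers pair animals. Of 3 interaction calls, DESeq2 had 0, no filter 8, thinning 1, barcodes up to the 95th percentile 5, a heat-shock limit on matched barcodes 7, equal depth 0 and leaving out each library 2 to 13. The share difference of -6.87 points was 0.306 with a limit of 20, 6.88 with none and -11.7 to -1.99 without each library.

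Signs turned for some genes, and the cause was not tested. Against matched barcodes Tnf was -0.25 thinned, -0.083 unmatched, -0.32 at equal depth and -1.12 outside MGnD-high, and Il1b 0.49 in MGnD-high. By genotype H2-Aa was -0.43, Apoe 0.40 and P2ry12 -0.032 outside MGnD-high. Kdm6b was -0.12 thinned and -0.17 to 0.43, Xist -0.056 to 13.57 and P2ry12 -0.039 to 0.13 without each library. The interaction of Enpp2 was 0.67 at equal depth and -9.46 to 0.11 without each library, that of Ttr 1.96 and -11.25 to 2.54, and that of Cxcl10 -0.55 without other-class barcodes. Against heat shock Kdm6b was -0.006 thinned and P2ry12 0.052 outside MGnD-high. Of 1015 other values for 66 named genes against matched barcodes, 978 kept direction and call, 28 lost the call, 4 gained one and 5 turned sign. Against heat shock 33 of 358 lost the call, and by genotype 71 of 273 gained one. Genotype rests on 2 libraries a group, and where 1 was left out the remaining single library took its spread from the other genotype.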
